A study of Mus musculus with 8 samples.

Results

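Tet1, Tet2 and Tet3 are the 3 genes of the mouse TET family of DNA dioxygenases, and they were followed here in epiblast-like cells (EpiLCs) of Tet1 KO and WT lines. They were taken by gene symbol from the 54281 genes of the expression tables, where each symbol occurred 1 time, and all 3 passed the filter on low counts. The study asked how TET1 guides the choice between neural and primitive streak fates, and the EpiLC libraries sample the cells before that choice. RNA-seq of polyadenylated RNA was made from 4 KO and 4 WT lines, 1 library each, at depths from 13916576 to 23680839 counts.

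All 8 lines shared the same background, labelled B6129S6F1, and were ESC lines derived from blastocysts. KO lines were Tet1 KO for the tm1Koh allele, and no line carried a label of altered Tet2 or Tet3. The ESCs had been adapted to 2iL medium and were converted to EpiLCs on fibronectin over 2 days, with 12 ng/ml bFGF and 1% KOSR but no Activin A in the medium. The WT12 and WT17 libraries carry other line names in their cell line field (WT9 and WT12). Both are WT by label and are named by title here. The study describes littermate pairs of KO and WT lines, but its text and labels do not match each of these KO lines to a WT littermate, so no pairs were formed. Since each line gave 1 library, variation within a genotype cannot be split into that of the line, its culture and its library. Column names carry a suffix that no source used here explains. KO1 and KO9 share the suffix b1 with WT7 and WT17, and KO15 and KO25 share b2 with WT12 and WT34, so each genotype held 2 lines of each suffix.

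TET enzymes oxidise 5-methylcytosine to 5-hydroxymethylcytosine and further oxidised bases, which can be lost by dilution during replication or excised by the glycosylase TDG and replaced. Full-length TET1 and TET3 carry a CXXC domain that binds unmethylated CpG, whereas TET2 lacks this domain and its catalytic part resembles those of the other two. Tet1 and Tet2 are the forms known from naive ESCs, Tet1 persists into the primed epiblast, and Tet3 is best known from oocytes and later differentiation.

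The 3 genes lie on different chromosomes, all on the minus strand. In mm10 (GENCODE M21 annotation), Tet1 lies at chr10:62804570-62908996, Tet2 at chr3:133463679-133545139 and Tet3 at chr6:83362373-83459084. Tet1 has 10 annotated transcripts of 361 to 14369 nt, and 8 of them are shorter than 2000 nt. Of these short models, 4 (361 to 553 nt) have start sites at positions 62887324 to 62908996 and end at position 62879873, within the exon that holds the start codon. Another 3 short models (581 to 1197 nt) lie instead at the 3′ end of the gene. Short and long models share sequence, so an estimate of how reads divide among them is less certain than the sum for the gene.

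The sequences below show where the KO allele is genotyped relative to these models. Of the 3 genotyping primers listed by the study for the tm1 allele, the 7F and 10R primers match the Tet1 transcript, and the remaining primer matched no Tet1 transcript. Primer 7F lies at chr10:62880092-62880110, upstream of the start codon, and is found in 5 Tet1 transcripts. Primer 10R lies at chr10:62879921-62879943, within the coding start, and is found in 6. The primers span 190 bases of the longest Tet1 transcript, with 148 bases between them. The third line gives the first 94 bases of the coding sequence on the minus strand (chr10:62879921-62880014), read from the GENCODE M21 transcript, with the stretch that primer 10R anneals to in capitals.
Tet1 primer 7F: ttggcaacacctccagatt
Tet1 primer 10R: gctttgatgtcttcgtcttcatc
Tet1 coding start: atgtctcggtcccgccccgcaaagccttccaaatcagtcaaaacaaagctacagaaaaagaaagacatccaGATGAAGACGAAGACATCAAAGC

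Tet1 was low but not absent in the KO lines. Its level in CPM, which are read counts scaled to library size (here by the TMM method of edgeR), was 45.3 in KO1, 38.4 in KO9, 53.5 in KO15 and 54.2 in KO25. In the WT lines it was 816 in WT7, 559 in WT12, 775 in WT17 and 851 in WT34. All KO lines lay far below all WT lines, and the WT lines differed among themselves mainly through the lower value of WT12. The means were 47.9 ± 7.47 CPM (SD, n = 4) in KO and 750 ± 132 CPM in WT, so the KO lines kept 6.38% of the WT reads. These reads were not few, since the 4 KO libraries held 743 to 1031 estimated counts each for Tet1.

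By the quasi-likelihood test of edgeR across 17272 genes, Tet1 fell by 3.97 on the log2 scale of CPM (SE 0.17, 95% interval −4.36 to −3.59, adjusted p = 2.09e-05). It was 1 of 7 genes called between KO and WT, where 0.0405% of all genes tested were called. Within the b1 lines, which are 2 KO and 2 WT lines, the log2 fold change was −4.25 (edgeR, adjusted p = 4.27e-06, 0.109% of genes called), and within the b2 lines it was −3.70 (adjusted p = 0.00661, 0.0289% of genes called). KO retained 5.26% of the WT mean CPM among b1 lines and 7.64% among b2 lines. The difference between these effects was 0.54 on the log2 scale (95% interval −0.04 to 1.11) and was not called by the interaction term of edgeR (adjusted p = 1.00). That term called 0% of the 17272 genes, and 227 genes had an unadjusted p under 0.05. Leaving out any 1 line kept the Tet1 call, with log2 fold changes from −4.09 to −3.88.

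In TPM, a scale that also divides reads by transcript length, the KO lines lay much closer to WT. Tet1 stood at 22.7 TPM in KO1, 21.6 in KO9, 31.0 in KO15 and 32.0 in KO25, against 89.3 in WT7, 60.5 in WT12, 91.5 in WT17 and 83.7 in WT34. Again no KO line reached the lowest WT line. KO averaged 26.8 ± 5.43 TPM and WT 81.2 ± 14.2 TPM (SD, n = 4 each), so KO kept 33.0% of the WT level on this scale, against 6.38% in CPM. The WT to KO ratio of the means was 3.03 in TPM and 15.7 in CPM.

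The size of the Tet1 difference therefore depended on the scale, and where length entered, the call depended on the fit. limma on log2(TPM + 1) gave a log2 difference of −1.57 (SE 0.18, 95% interval −1.98 to −1.15), and the adjusted p was 0.0843 over 13838 genes, of which 0.0145% were called. With another pseudocount or no filter the adjusted p was 0.0854 or 0.161. An edgeR fit that took the length of each gene in each library as an offset gave −1.58 (SE 0.18, adjusted p = 0.0456), with 0.0174% of genes called. The direction was downward in every one of these fits, and Tet1 remained lower in 4 of 4 KO lines.

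**Figure D1:**
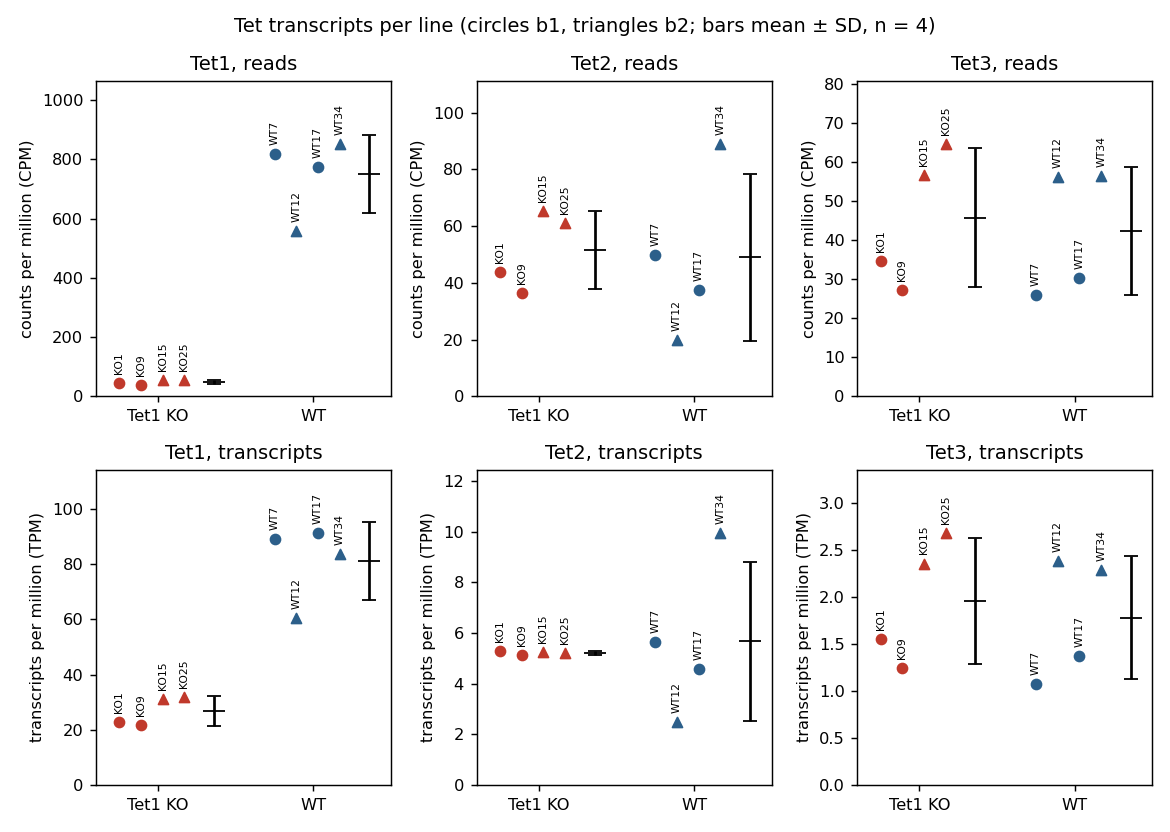
Reads (upper panels, CPM on a linear axis) and length-corrected transcripts (lower panels, TPM on a linear axis) of the 3 Tet genes in the 4 KO lines (red) and 4 WT lines (blue), with circles for b1, triangles for b2 and bars for the mean ± SD. KO and WT lines separate for Tet1 in both rows, more widely in CPM (38.4 to 54.2 against 559 to 851) than in TPM (21.6 to 32.0 against 60.5 to 91.5), and overlap for Tet2 and Tet3.

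The gap between the scales equals a difference in the transcript length that the quantification assigned to Tet1. This implied length is the count per TPM, set to nucleotides in each library with 294 genes that have 1 annotated long transcript. For Tet1 it was 895 nt in KO1, 790 nt in KO9, 768 nt in KO15 and 761 nt in KO25. The WT values were 3972 nt in WT7, 4321 nt in WT12, 4020 nt in WT17 and 4439 nt in WT34. The groups did not overlap, and each was narrow, with 804 ± 62.0 nt in KO and 4188 ± 228 nt in WT (SD, n = 4 each).

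The KO lines thus had 19.2% of the mean WT length, a log2 difference of −2.38 (two-sided exact permutation test over the 70 assignments of lines, p = 0.0286, the smallest p that 4 against 4 lines allow). Of 14643 genes with enough counts, 9 (0.0615%) were at least 2-fold shorter in KO with no overlap of the groups, and Tet1 was among them with Hlf (−2.59), Stk32a (−2.19) and Glcci1 (−1.78 on the log2 scale), genes named here only for that count. The middle 90% of calibration genes lay between −0.0053 and 0.0046. These genes have no choice of transcript model and themselves set the scale, so their range was bound to be narrow. That range does not measure error in dividing reads among transcript models. The middle 90% of all 14643 genes lay between −0.25 and 0.24. The length difference was −2.25 among b1 lines and −2.52 among b2 lines.

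Tet1 models in GENCODE M21 are either at most 1505 nt or at least 13986 nt long. Under these models, a mean length between these values reflects how transcripts were divided between short and full-length models. The study names another GENCODE release for its quantification, so the shares below hold only if its Tet1 models were alike. They also take the nominal length of each model. In WT lines at least 70.1% to 73.5% of Tet1 transcripts would have to be counted on short models to give the observed length. In KO lines this share was at least 96.1% to 97.1%. With these models, short ones took most Tet1 transcripts in both genotypes, and more of them in KO. These are shares of transcripts and not of reads. A full-length transcript gives many more reads than a short one, and the division of reads was not computed. The gene tables do not show which models these were, so neither the position of the remaining reads nor their content was tested. A gene-level value does not show whether a KO transcript can be translated.

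The predicted gene Gm48353 lies within an intron of Tet1 on the same strand and was looked at after its values had been seen. In KO lines it ranged from 0.0937 to 0.301 CPM, and the WT range was 0.935 to 2.68 CPM, on 2 to 6 counts in each KO library and 17 to 57 in each WT library. It was lower in every KO line than in every WT line, as Tet1 itself was. The share of all genes that separate the groups in this way was not counted.

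**Figure D2:**
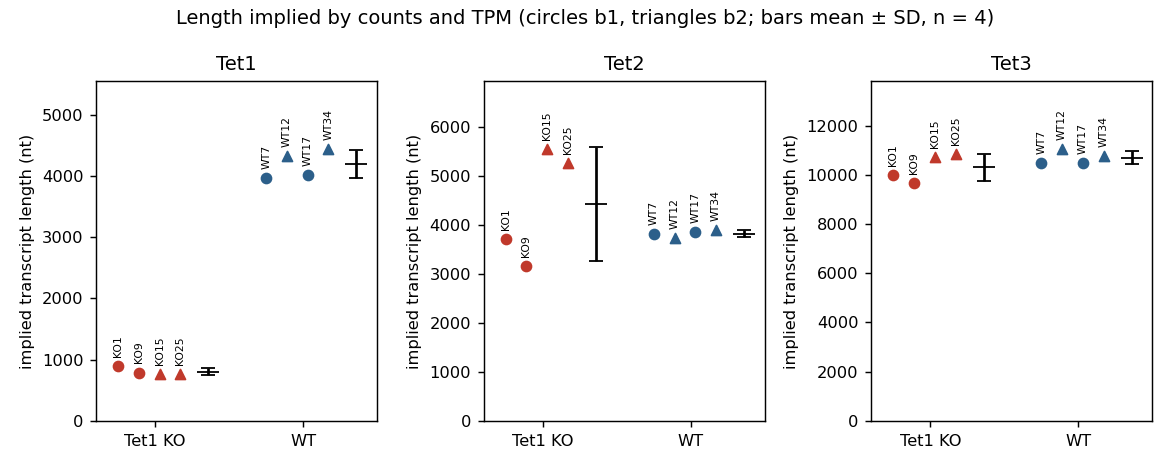
Transcript length implied by counts and TPM (nucleotides, linear axes from 0) for each Tet gene in the 4 KO lines (red) and 4 WT lines (blue), with circles for b1, triangles for b2 and bars for the mean ± SD. Tet1 stands at 761 to 895 nt in KO against 3972 to 4439 nt in WT, Tet2 stands at 5271 nt or more only in KO15 and KO25, and Tet3 lies between 9663 and 11048 nt in all lines.

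Tet2, the member without a CXXC domain, showed no difference between KO and WT that passed the test. Its levels were 43.9 CPM in KO1, 36.4 in KO9, 65.3 in KO15 and 61.1 in KO25. In WT they were 49.8 in WT7, 19.9 in WT12, 37.3 in WT17 and 88.9 in WT34. The lowest and the highest values were both from WT lines, WT12 and WT34, and all 4 KO lines fell between them. The means were 51.7 ± 13.8 CPM in KO and 49.0 ± 29.3 CPM in WT (SD, n = 4 each).

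The fitted change of Tet2 was 0.08 on the log2 scale of CPM (edgeR, SE 0.39, adjusted p = 0.998). Its 95% interval ran from a fold of 0.575 to 1.94, so a rise or fall of Tet2 within these bounds remained possible. The point estimate changed sign with the lines used. It was −0.12 among b1 lines and 0.24 among b2 lines, and −0.19 without WT12 and 0.54 without WT34, none with an adjusted p under 0.05. The adjusted p over all alternatives ran from 0.836 to 1.00.

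In TPM, Tet2 was nearly the same in all KO lines, at 5.29 in KO1, 5.11 in KO9, 5.23 in KO15 and 5.21 in KO25. The WT lines spread widely, at 5.65 in WT7, 2.48 in WT12, 4.59 in WT17 and 9.96 in WT34. The coefficient of variation was thus 1.41% among KO lines and 55.5% among WT lines on this scale, while in CPM it was 26.6% and 59.9%. The TPM means were 5.21 ± 0.07 in KO and 5.67 ± 3.15 in WT (SD, n = 4 each), and limma on log2(TPM + 1) gave a difference of 0.02 (SE 0.31, adjusted p = 1.00).

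The KO lines agreed closely in TPM but not in CPM. Since implied length is the count per TPM, their implied lengths had to be unequal, and this is no separate result. The implied length of Tet2 was 3726 nt in KO1 and 3161 nt in KO9, but 5560 nt in KO15 and 5271 nt in KO25. All WT lines lay between 3744 and 3896 nt. The b2 KO lines were therefore above, and the b1 KO lines below, every WT line. How many of all genes show such a pattern was not counted. Over all lines the log2 difference of 0.17 gave p = 0.429 (two-sided exact permutation test). Annotated Tet2 transcripts range from 423 to 9179 nt, and 5 of the 10 are shorter than 2000 nt. Taking length as an offset turned the estimate for Tet2 to −0.12 (edgeR, SE 0.35, adjusted p = 0.999).

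The level of naive ESC markers also varied among lines. The summed TPM of 6 naive markers (Zfp42, Esrrb, Klf4, Tbx3, Tfcp2l1 and Nr0b1) was 13.9 in WT12, 25.9 in WT17, 32.5 in WT7 and 37.4 in WT34, the same order as for Tet2. In KO lines it was 26.7 in KO9, 30.2 in KO1, 31.1 in KO25 and 33.9 in KO15, which is the order of Tet2 in CPM there. In TPM, the scale of the marker sum, the KO order of Tet2 was another one. It ran from 5.11 in KO9 through 5.21 in KO25 and 5.23 in KO15 to 5.29 in KO1. Single markers did not all follow the order of the sum. Zfp42 and Nr0b1 were highest in WT34 among WT lines and in KO15 among KO lines, but Esrrb and Tfcp2l1 were highest in WT7 (11.5 and 2.64 TPM) and, among KO lines, lowest in KO15 (6.20 and 1.53 TPM). None of the 6 was called between KO and WT, and the part of the naive state in the Tet2 values was not tested. In bulk RNA, more cells of a kind and more RNA per cell cannot be told apart.

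Tet3, a member with a CXXC domain, likewise showed no change that passed the test between KO and WT. It had 34.6 CPM in KO1, 27.1 in KO9, 56.6 in KO15 and 64.6 in KO25. The WT values were 26.0 CPM in WT7, 56.2 in WT12, 30.1 in WT17 and 56.4 in WT34. Within each genotype the 2 b2 lines were high and the 2 b1 lines low, and KO and WT overlapped. The means were 45.7 ± 17.8 CPM in KO and 42.2 ± 16.4 CPM in WT (SD, n = 4 each).

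The change of Tet3 was 0.11 on the log2 scale of CPM (edgeR, SE 0.34, fold 1.08, 95% interval 0.642 to 1.82, adjusted p = 0.998). With the suffix as a term in the fit the estimate was 0.12 and the interval narrowed to a fold of 0.936 to 1.26 (adjusted p = 0.680), while that fit called 28 genes (0.162%). Among b1 lines the log2 value was 0.13 and among b2 lines 0.11 (edgeR, adjusted p = 0.778 and 0.999).

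The suffix itself was the larger contrast for Tet3. The b2 lines stood between 56.2 and 64.6 CPM and the b1 lines between 26.0 and 34.6 CPM, with no overlap. With genotype in the fit, the log2 difference of b2 from b1 was 0.99 (edgeR, SE 0.10, fold 1.98, 95% interval 1.71 to 2.31, adjusted p = 0.000235). Of all genes, 24.6% were called by this contrast, so Tet3 was 1 of 4253. The effect held without any 1 line, with log2 values from 0.91 to 1.06.

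The other members were not called by suffix. For Tet1 the difference was 0.08 (SE 0.15, adjusted p = 0.728). For Tet2 it was 0.48 (SE 0.36, adjusted p = 0.357), and it was 0.79 without WT12 (edgeR, adjusted p = 0.0025) and 0.0091 without WT34, over an adjusted p range of 9.71e-05 to 0.988 among the alternatives. The KO effect in b2 minus that in b1 was 0.35 for Tet2 (95% interval −1.34 to 2.03) and −0.03 for Tet3 (95% interval −0.50 to 0.44), neither of them called by edgeR (adjusted p = 1.00 for both).

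In TPM, Tet3 was the least abundant member. It had 1.55 in KO1, 1.24 in KO9, 2.35 in KO15 and 2.68 in KO25, against 1.08 in WT7, 2.38 in WT12, 1.37 in WT17 and 2.29 in WT34. The order by suffix was the same as in CPM. limma on log2(TPM + 1) gave a KO difference of 0.09 (SE 0.24, adjusted p = 1.00). The implied length was 9663 to 10827 nt in KO and 10464 to 11048 nt in WT, close to the longest annotated Tet3 transcript of 10904 nt. The log2 difference in length of −0.06 gave p = 0.286 (two-sided exact permutation test).

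**Figure D3:**
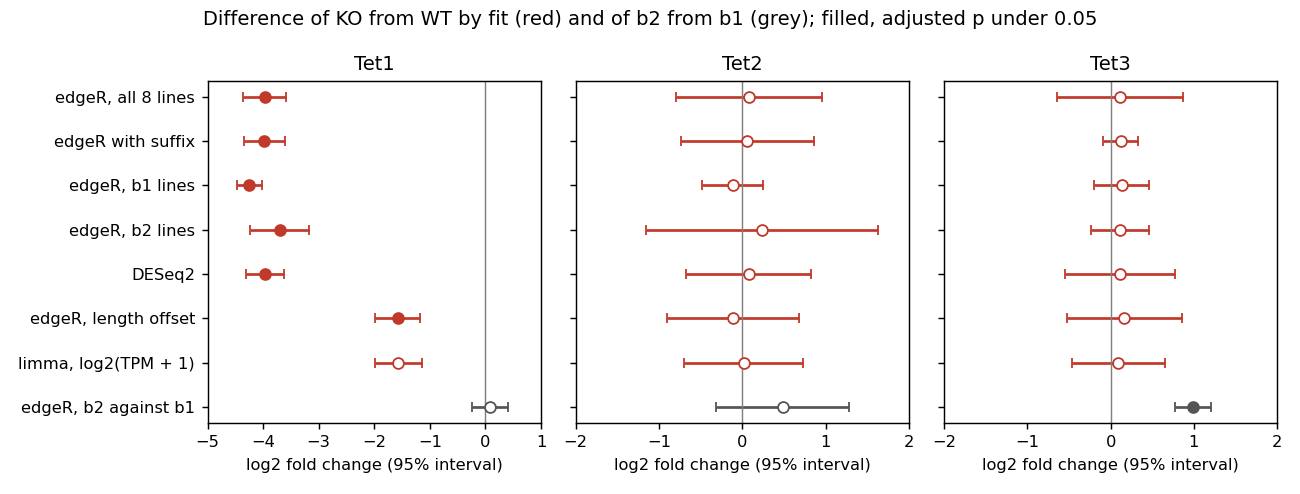
Log2 fold changes of each Tet gene with 95% intervals, for KO against WT under 7 fits (red) and for b2 against b1 (grey), with filled points where the adjusted p was under 0.05. Tet1 lies near −4 in the count fits and at −1.58 and −1.57 where length enters, the KO intervals of Tet2 and Tet3 all include 0, and the suffix contrast is filled for Tet3 only.

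The levels of the 3 genes can be set side by side in TPM. The order was Tet1, then Tet2, then Tet3 in all 8 lines, KO lines included, although in WT12 Tet2 exceeded Tet3 only by a ratio of 1.04. In WT lines Tet1 exceeded Tet2 by a ratio of 8.41 to 24.4, and in KO lines by 4.22 to 6.14. Tet1 made up 91.7% ± 3.01 of the summed TPM of the family in WT and 78.7% ± 1.87 in KO (SD, n = 4 each).

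The sum of the family was 34.01 ± 6.12 TPM in KO and 88.7 ± 15.5 TPM in WT (SD, n = 4 each), ranging from 27.9 to 39.9 in KO and from 65.4 to 97.4 in WT. Because the implied length of Tet1 was shorter in KO, the Tet1 reads of every line were also expressed at the mean WT length of 4188 nt. Tet1 then stood at 4.07 to 5.82 TPM in KO and 62.5 to 88.7 TPM in WT. On that scale the family sum was 12.3 ± 1.51 TPM in KO and 88.4 ± 14.6 TPM in WT. Tet1 then equalled 0.797 to 1.12 times Tet2 in KO lines, so the order of these genes in KO was no longer the same in all lines.

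Tet2 and Tet3 together gave 7.17 ± 0.699 TPM in KO and 7.45 ± 3.29 TPM in WT (SD, n = 4 each). The KO lines ran from 6.35 to 7.89 and the WT lines from 4.87 to 12.2. The KO lines lay inside the WT range. Against the loss of 54.4 TPM of Tet1 between the group means, the mean of Tet2 differed by −0.46 TPM and that of Tet3 by 0.18 TPM. No rise of Tet2 or Tet3 in KO lines passed a test in any fit that was run, and the intervals given above show the sizes that remain possible.

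**Figure D4:**
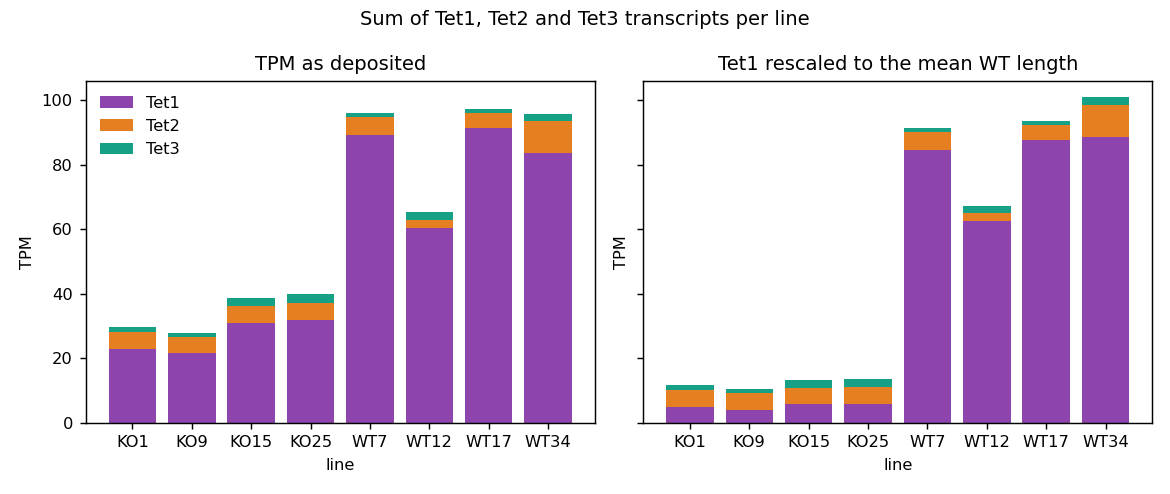
Stacked TPM of Tet1, Tet2 and Tet3 in each line (linear axis from 0), as deposited (left) and with Tet1 expressed at the mean WT length (right). The family sum is 27.9 to 39.9 TPM in KO against 65.4 to 97.4 TPM in WT on the left, and on the right the KO sum drops to 10.4 to 13.7 TPM.

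The libraries of both groups expressed all the listed markers of the labelled state. The summed TPM of 6 EpiLC markers (Pou5f1, Dnmt3b, Otx2, Fgf5, Pou3f1 and Pou2f2) was 745 to 807 in KO and 674 to 853 in WT. Most of it came from Pou5f1 (mean 462 TPM in KO and 452 in WT) and Dnmt3b (252 and 245). The other markers averaged from 2.53 (Pou2f2) to 23.8 TPM (Otx2) in KO, and from 3.50 (Pou2f2) to 23.6 TPM (Pou3f1) in WT. The sum therefore mainly reflects Pou5f1 and Dnmt3b and does not by itself establish the state. Markers of the fibroblast feeders that support ESC culture (Col1a1, Col1a2, Col3a1, Thy1, Postn, Lum and Dcn) summed to 11.01 to 29.9 TPM in KO and 5.45 to 20.3 TPM in WT, most of it Thy1, with Postn at 0 in all lines and Lum at 0 in 7 of them. The 6 extraembryonic endoderm markers Gata6, Sox17, Gata4, Sox7, Dab2 and Foxa2 summed to at most 4.11 TPM in KO and 4.56 TPM in WT, and the 3 neural markers Sox1, Pax6 and Tubb3 to at most 8.34 and 10.6 TPM. Of 28 markers, 24 were tested and 0 were called by edgeR, 2 with an unadjusted p under 0.05 (Sox7 at 2.03 and Tubb3 at −0.49 on the log2 scale). DESeq2 and limma also called 0. By suffix, 5 of the 24 markers (20.8%) were called by edgeR, against 24.6% of all genes. Sox1 (1.94), Foxa2 (1.83), Pou3f1 (0.89) and Fgf5 (0.64 on the log2 scale of CPM) were higher in b2 lines, and Thy1 (−0.95) was lower. Of the other feeder markers tested by suffix, Col1a2 stood at 1.17, Dcn at 0.48 and Col1a1 at −0.04, none of them called. The part of these markers in the Tet3 values was not tested.

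Genes that write, remove or control the marks on which TET enzymes act were examined in 5 lists. Of 46 genes, 44 were tested and 0 passed in either direction by edgeR, where 0.0405% of all genes were called. DESeq2, which called 0.66% of the genes it tested, and limma on TPM also called 0 of them. An unadjusted p under 0.05 was found for 3 genes, which is 6.82% of the 44 against 5.62% of all genes. The median log2 fold change of the 44 was 0.00, as it was over all genes, and single values ran from −0.55 to 0.34.

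The 5 writers of DNA methylation had a median log2 fold change of 0.07. The smallest p values were those of Dnmt3l, a cofactor of the de novo methyltransferases, at 0.34 (SE 0.29), and of Dnmt1, the maintenance methyltransferase, at −0.09 (SE 0.08), both with an edgeR adjusted p of 0.998. Dnmt3l stood at 29.9 TPM in WT12 and 88.6 TPM in WT34, the same lines that were lowest and highest for Tet2. Dnmt1 stood at 50.6 ± 2.56 TPM in KO and 56.1 ± 1.78 TPM in WT (SD, n = 4 each).

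The 12 genes for excision and repair of oxidised cytosine had a median of 0.03. Tdg, the glycosylase that removes oxidised forms of 5-methylcytosine, had the smallest p. It stood at 0.32 (SE 0.13, edgeR adjusted p = 0.847), with 63.2 ± 11.3 TPM in KO and 41.3 ± 15.8 TPM in WT (SD, n = 4 each). KO ran from 53.1 to 77.4 TPM and WT from 28.8 to 64.5 TPM, so the groups overlapped through WT17. Parp1, a sensor of DNA breaks, stood at 0.12 (SE 0.11, adjusted p = 0.998).

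Among 11 partners and regulators of TET proteins, of which 10 were tested, the median was −0.06. Nanog, a pluripotency factor that binds TET1, had a log2 value of −0.55 (SE 0.19, edgeR adjusted p = 0.751). Nanog stood at 6.27 to 8.70 TPM in KO and 8.78 to 15.4 TPM in WT, so the ranges nearly met. How many of all genes have separate ranges was not counted. Sin3a, a corepressor scaffold that binds TET1, had −0.29 (SE 0.12, adjusted p = 0.840). Prdm14, the gene that was not tested, was at or below 0.0549 TPM in the mean of either group.

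Of 9 CXXC domain genes, 8 were tested, with a median of 0.03 and with Kdm2b, a histone demethylase that recruits Polycomb complexes to CpG islands, at 0.12 (SE 0.07, edgeR adjusted p = 0.969) and Cxxc1, a subunit of histone methyltransferase complexes, at 0.15 (SE 0.11, adjusted p = 0.998). Cxxc4, whose CXXC domain is related to the one that Tet2 lacks, was not tested and averaged 0.0487 TPM in KO and 0.154 TPM in WT. The 9 genes of cofactor supply had a median of −0.07, with Idh1, which makes the TET cosubstrate 2-oxoglutarate, at −0.19 (SE 0.11, edgeR adjusted p = 0.973) and Ogdh, which consumes it, at −0.12 (SE 0.07, adjusted p = 0.989). By suffix, 15 of the 44 genes (34.1%) were called, against 24.6% of all genes. With the suffix as a term in the KO fit, 0 of the 44 were called, where 0.162% of all genes were.

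**Figure D5:**
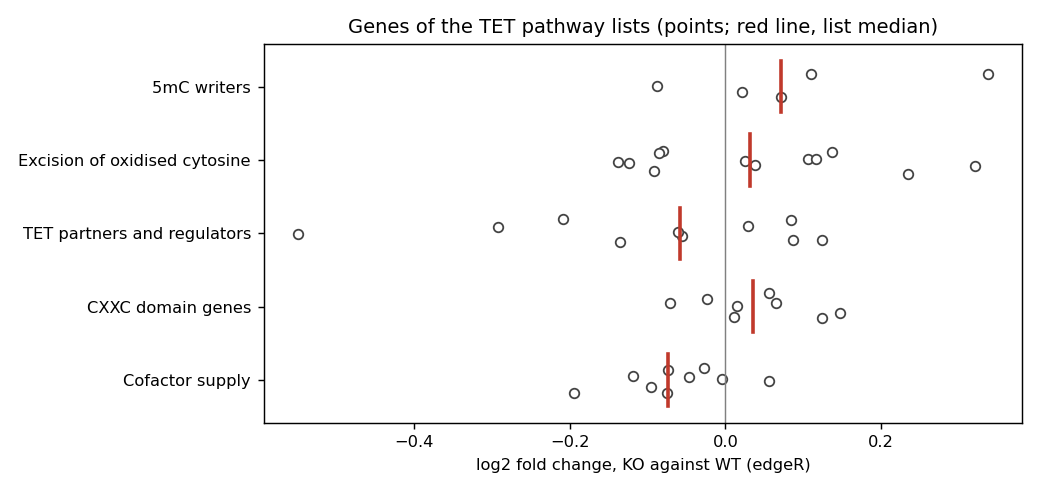
Log2 fold change of KO against WT (edgeR) for each tested gene of 5 lists around TET function, with the list median as a red line and vertical jitter for legibility. No point reaches an adjusted p under 0.05, the medians lie between −0.07 and 0.07, and the most distant points are Nanog at −0.55 and Dnmt3l at 0.34.

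Other genes followed the same pattern over the 8 lines. Likeness was taken as Pearson's r of log2(CPM + 1) among 8514 protein-coding genes, as a description over lines that share genotype and suffix. Tet1 was most like Tpm3-rs7 (r = 0.99), a sequence related to tropomyosin that shares reads with its parent gene and is therefore uncertain, with at most 1.56 CPM in KO lines and at least 69.9 CPM in WT lines. Next came Maf1, a repressor of RNA polymerase III (r = 0.97), and Rpp40, a subunit of RNase P (r = 0.96). Pearson's r does not measure size. Maf1 differed by −0.38 and Rpp40 by −0.43 on the log2 scale of CPM, and neither was called (edgeR, adjusted p = 0.352 and 0.333).

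Tet2 was most like Dpp4, a cell surface peptidase (r = 0.98), Dnajc8 (r = 0.98) and Ttc39b (r = 0.98). Dpp4 shared the low value of WT12 (3.84 CPM) and the high value of WT34 (17.3 CPM). Tet3 was most like Mob1b, an activator of kinases in the Hippo pathway (r = 0.99). Rpl5, a protein of the large ribosomal subunit, and Abitram followed (r = 0.99 for both). All 3 were higher in b2 than in b1 lines. They were chosen for likeness to Tet3 over these same lines, so this is no separate result. The members were not like each other, with r = −0.09 for Tet1 and Tet2, −0.09 for Tet1 and Tet3, and 0.27 for Tet2 and Tet3.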

How the data were processed

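RNA-seq libraries (stranded, polyadenylated RNA) of 4 Tet1 KO and 4 WT EpiLC lines were examined. By the methods and the submitters' processing notes, reads were trimmed (Trim Galore 0.6.4), assigned to GENCODE mouse transcripts of build mm10 (Salmon 0.14.1) and collapsed to genes (tximport, R 4.0.2). The authors deposited estimated counts and TPM of that quantification. Columns were assigned by the line names in the titles.

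Estimated counts were rounded to whole numbers (27.8% of values were not whole). After filterByExpr, 17272 genes were scaled by TMM and KO was tested against WT by the quasi-likelihood method of edgeR 4.0.16 in R 4.3.3, with Benjamini-Hochberg adjustment at 0.05. The same fit was run with the column suffix and its interaction with genotype. TPM were tested with limma 3.58.1 on log2(TPM + 1) for genes with a mean of at least 1 TPM, a scale that understates changes of low genes. Implied length is the estimated count per TPM, scaled in each library by 294 genes with 1 annotated transcript over 3000 nt and at least 100 counts. It was taken for 14643 genes with at least 10 counts in every library and compared for the members by exact permutation (SciPy 1.17.1). All columns belonged to the 8 lines. On simulated data the edgeR fit of KO against WT recovered 16% of genes changed 1.5-fold, 38% changed 2-fold and 92% changed 4-fold. Of its 130 calls, 8 were false.

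Alternatives were DESeq2 1.42.0 or its size factors, library size alone, no filter, at least 10 counts in every library, a length offset, pseudocount 0.1, the suffix as a block, either suffix alone and each line left out. Positions, transcript models and the coding sequence come from GENCODE M21, in which 53544 of 54281 gene IDs matched, and primers from the study's oligo list. The study names another GENCODE release for its quantification, so its transcript models may differ from those of M21. Named genes were the members, list genes that were called or had the 2 smallest p values of their list, cell type markers and, per member, the 3 most alike genes with at least 10 CPM without predicted genes and pseudogenes. Gm48353 and the genes with shorter implied length were added after their values were seen. The members, lists and tests were chosen with earlier results of these data known. Replicates are separate lines with 1 library each, so p-values rest on a spread that joins line, culture and library. In fits without the suffix, that spread also holds the difference between the suffixes. At these totals 1 count is far below 1 CPM.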

Additional observations from a re-analysis of the deposited data

Results flagged for a closer look

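The implied transcript length of Tet2 moved in opposite directions in the lines of the 2 suffixes. Among b2 lines KO exceeded WT by 1595 nt (5271 and 5560 nt against 3744 and 3896 nt). Among b1 lines the KO values were the smaller ones (3161 and 3726 nt against 3827 and 3858 nt). The difference between the suffixes in this quantity was not tested, and the share of all genes with such a pattern was not counted. In CPM and TPM the means of KO and WT also differed in opposite directions between the suffixes, but the KO and WT values overlapped within each suffix. Mean Tet2 CPM was 40.1 in KO and 43.6 in WT among b1 lines, and 63.2 and 54.4 among b2 lines. Mean TPM was 5.20 and 5.12 among b1 lines, and 5.22 and 6.22 among b2 lines. Over 18 groups of 4 values (CPM, TPM and implied length of each member in KO and in WT), no line stood apart by Dixon's criterion, of which chance would mark about 1 in 20.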

How the results depend on the processing

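Tet1 was lower in KO under all 20 alternatives and passed the threshold in 17 of them. The exceptions were limma on log2(TPM + 1) at −1.57, log2(TPM + 0.1) at −1.60 and log2(TPM + 1) without a filter at −1.57. Tet2 and Tet3 were never called between KO and WT. Tet2 changed sign with the length offset (−0.12) and among b1 lines (−0.12), and leaving out each line gave −0.19 to 0.54 for Tet2 and −0.10 to 0.30 for Tet3. The cause was not tested. The number of genes called between KO and WT was 7, against 105 with DESeq2, 28 with the suffix block, 19 among b1 lines, 5 among b2 lines, 3 with the length offset, 2 with limma on log2(TPM + 1) with or without the filter, 3 on log2(TPM + 0.1), and 6 to 10 without 1 line. Upward calls were 5 of 7 in the edgeR comparison of all lines, 1 of 3 with the length offset, 1 of 5 among b2 lines and 0 of 2 with limma.

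The suffix contrast of Tet3 kept its call under all 10 alternatives. That of Tet2 was 0.45 and called without a filter, and 0.0091 to 0.79 without 1 line, called without WT12. That of Tet1 ran from −0.035 to 0.24 without 1 line. The KO effect in b2 minus b1 ran from −0.38 to 1.79 for Tet2 and from −0.20 to 0.16 for Tet3 without 1 line, and was not called. The implied length of Tet1 was shorter in KO by −2.25 among b1 lines and −2.52 among b2 lines (log2), that of Tet2 changed sign from −0.16 among b1 to 0.50 among b2 lines, and that of Tet3 stayed within its spread. No paired analysis was possible because the sources used here do not match these KO lines to their WT littermates, and the line numbers differ between the groups. With 4 lines a group, exact permutation cannot give p below 0.0286. Short and long models of 1 gene share reads, so implied lengths rest on the division that the quantification made.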
